A study of Mus musculus with 12 samples.

Results

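Cholesterol and lipid handling in CD115+ monocytes was followed through 35 genes listed by symbol, from the enzymes that make sterols and fatty acids to the receptors, transporters and storage proteins that act on them. A gene belonged to the set when it held at least 10 counts in 3 or more libraries, and all 35 listed genes met this. All 35 were also among the 20135 of 52553 features that passed the expression filter. By role they comprised 12 enzymes of sterol synthesis, 3 regulators of the sterol response, 6 enzymes of fatty acid synthesis, 7 genes of the LXR response, efflux and lipoproteins, 2 genes of lipid storage and 5 genes of PPAR signalling, fatty acid uptake and oxidation.

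The cells came from male C57BL/6 mice that were either intact, with spleen and liver in place, or had lost 70% of the liver 24 h earlier with the spleen kept. RNA-seq covered 4 groups of 3 libraries, namely blood and spleen of intact animals and blood and spleen of resected animals, and each library pooled the monocytes of 5 mice. Mononuclear cells were taken on a Ficoll gradient, the splenic ones after collagenase and lysis of red cells, and monocytes were then caught with magnetic beads against CD115, the receptor encoded by Csf1r. No transgene or deletion was present in any of these groups, and the p-values measure only the spread between these pooled libraries. The labels call the control animals intact and do not say whether they had a sham operation. The methods describe sham-operated mice with intact liver as controls of the study. The labels do not pair blood and splenic libraries of the same mice.

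Cells keep their sterol content within limits with opposed sets of genes. When membrane cholesterol is low, the SREBP factors leave the endoplasmic reticulum and switch on the enzymes of the mevalonate and sterol pathway and of fatty acid synthesis, and Insig1 holds them back when sterol is sufficient. When oxysterols accumulate, the LXR receptors switch on export through Abca1 and Abcg1 and the lipoprotein genes Apoe and Pltp, and they also drive Srebf1 and Mylip. PPAR receptors sense fatty acids and control their binding, storage and oxidation, and macrophages that take up lipid place cholesteryl esters and triglycerides in droplets, which Soat1 fills and Plin2 coats.

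The libraries held 36990033 to 46401368 estimated counts each. Csf1r was present in all 12, at 209 to 719 CPM (reads of a gene relative to the whole library, TMM-scaled) in blood and at 374 to 1190 CPM in spleen. Other cells left RNA in the libraries. The 9 neutrophil markers summed to 137 to 494 CPM in intact and 3580 to 18100 CPM in resected blood, and to 1310 to 2240 CPM in intact and 5400 to 14000 CPM in resected spleen. The 8 markers of large peritoneal macrophages summed to 313 to 1020 CPM in intact and 8590 to 13100 CPM in resected blood, against 19.1 to 27.9 CPM and 35.3 to 859 CPM in spleen. The 859 CPM belonged to resected splenic library 3, where Saa3 alone gave 847 CPM. The 8 monocyte markers summed to 3490 to 9270 CPM in intact and 12700 to 14900 CPM in resected blood. In spleen the sums were 3110 to 3480 CPM and 4120 to 4390 CPM. The single markers did not move together. At an adjusted p under 0.05, 2 of the 8 were higher and 1 lower in blood (10.8% and 10.3% of all features). None passed in spleen (1.02% and 1.03%). Lyz2 alone gave 2420 to 6800 CPM in intact and 5540 to 9040 CPM in resected blood. Cx3cr1 was lower in every resected library than in every intact one of the same tissue. The 5 adipocyte markers summed to at most 0.334 CPM and the 7 hepatocyte markers to at most 2.01 CPM in any library. In bulk samples fewer cells of a type and less RNA per cell cannot be told apart, and the part of these cells in the results on lipid genes was not tested.

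Some libraries stood apart from their group, and results that rest on them are given with and without them. In intact blood library 3, 14 of the 35 lipid genes had their highest value of all 12 libraries (40.0%), against 21.4% of all features, and among the enzymes of sterol synthesis it was 9 of 12. The 6 proliferation markers summed to 1590 CPM in this library and to 66.8 and 87.2 CPM in the others of its group, and its 6 T-cell markers to 1950 CPM against 620 and 622 CPM. The T-cell markers did not move together. Lck (1200 CPM), Cd3d, Cd3e and Cd3g were higher in this library than in the others of its group. Cd8a (12.9 against 70.5 and 65.3 CPM) and Cd5 (11.4 against 64 and 54.4 CPM) were lower. The monocyte markers of intact blood library 3 summed to the lowest value of the group, 3490 CPM. Intact splenic library 3 was the farthest on the log2 scale from the other two of its group for 27 of the 35 lipid genes (77.1%), against 48.3% of all features. The same measure gave 26 of 35 (74.3%) and 66.4% for intact blood library 3, and 14 of 35 (40.0%) and 39.4% for resected splenic library 3. The latter was apart in marker genes. In it the neutrophil markers summed to 14000 CPM, the peritoneal macrophage markers to 859 CPM and the 5 Kupffer cell markers to 323 CPM. The other libraries of that group had no more than 5550, 49.3 and 23.5 CPM. Of the neutrophil markers, Ly6g (26.4 against 27.9 and 28 CPM) and Camp (79.1 against 55.2 and 105 CPM) were not the highest there. Saa3 alone gave 847 of the 859 CPM and Marco alone 321 of the 323 CPM. These sums thus rest on single genes and do not show more cells of either macrophage type. Resected blood library 3 was also apart in neutrophil markers, which summed to 18100 CPM against 3580 and 4500 CPM in the others of its group. Camp was the lowest of the group there (16.1 against 35.2 and 22 CPM) and Ltf in the middle (142 against 153 and 137 CPM). On the log2 scale this library was the farthest of its group for 18 of the 35 lipid genes (51.4%), against 49.1% of all features.

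**Figure D1:**
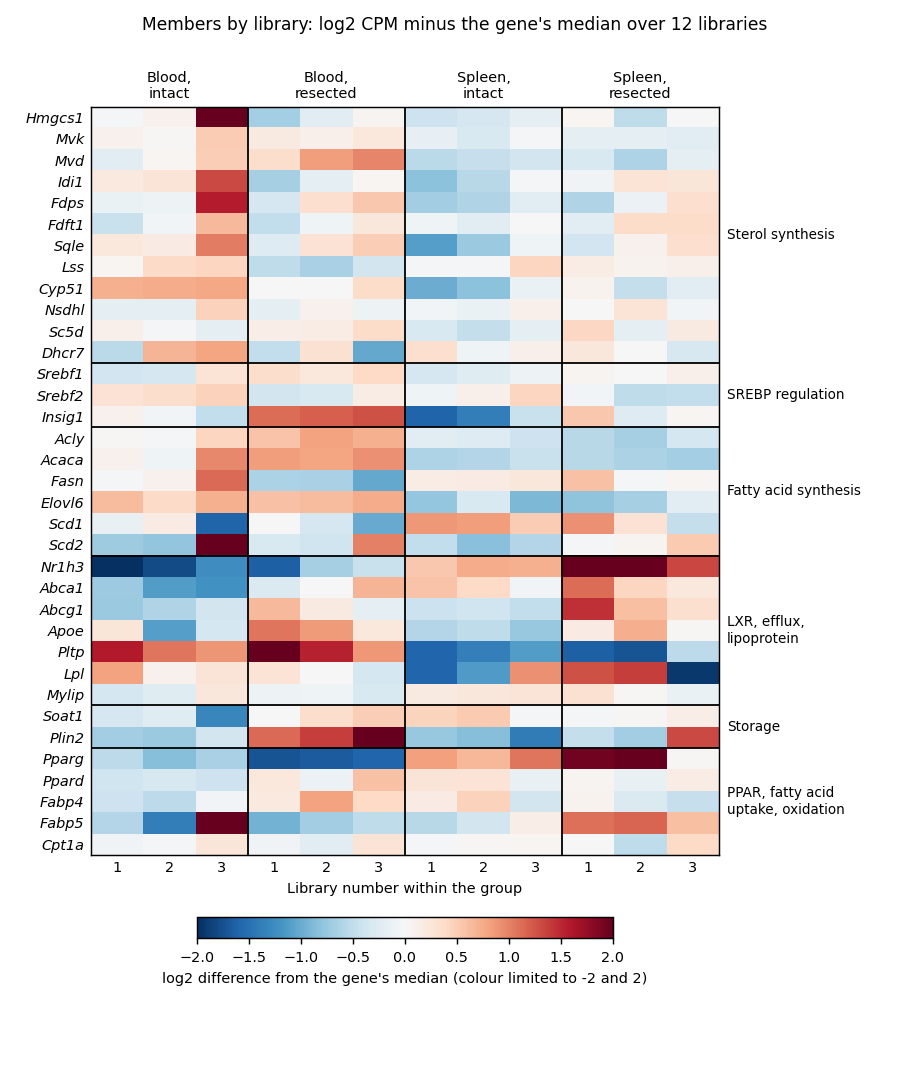
Each row is 1 of the 35 genes, grouped by role, and each column 1 of the 12 libraries. The colour is log2 of CPM plus 0.5, minus the mean of the 4 group means of that gene on the same scale. The title and colour bar name a median, but the values shown are differences from this mean. Intact blood library 3 is red over most of the sterol synthesis rows, Insig1 and Plin2 are red in the resected blood libraries, and Nr1h3 and Pparg are blue in blood and red in spleen.

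Promoter sequences are shown because the sterol enzymes are known to share control elements there. RefSeq promoter windows of mouse assembly GRCm38.p6, from 250 bases before to 50 bases after the start of transcription, were at hand for 26 of the 35 genes, in 35 windows. The 9 without a window were Fdps, Fdft1, Sqle, Scd1, Scd2, Abcg1, Lpl, Fabp4 and Fabp5. Both strands were searched for the sterol regulatory element TCACNCCAC, the CCAAT box, which NF-Y binds, and the GC box GGGCGG, which Sp1 binds. The regulatory element stood in 408 of 32851 windows (1.24%) and, among the 26 genes, only before Hmgcs1. A CCAAT box stood in 37.4% of windows and a GC box in 35.7%. Both stood together in a window of 20 of the 26 genes (76.9%), against 14.5% of the 27025 genes searched. These were all 9 sterol enzymes with a window, all 3 regulators, both storage genes, all 3 PPAR-related genes with a window, 1 of 4 fatty acid enzymes and 2 of 5 genes of the LXR and lipoprotein group. The windows include the 50 bases after the start. The only GC boxes of Plin2 and Soat1 and the only CCAAT box of Acly stood there. No window of the 26 genes held 2 copies of AGGTCA in a row at a spacing of 4 bases, the textbook LXR element, or at a spacing of 1 base, the textbook PPAR element, and over all windows these stood in 0.0152% and 0.0396%. The 250 bases before the start are given for 3 sterol enzymes, for Insig1, and for Plin2 and Abca1, which rose in blood. They read 5′ to 3′ along the gene, with the regulatory element, the CCAAT box and the GC box in capitals in either direction (ATTGG and CCGCCC are the boxes on the other strand).
Hmgcs1, chr13:119690101-119690350, plus strand: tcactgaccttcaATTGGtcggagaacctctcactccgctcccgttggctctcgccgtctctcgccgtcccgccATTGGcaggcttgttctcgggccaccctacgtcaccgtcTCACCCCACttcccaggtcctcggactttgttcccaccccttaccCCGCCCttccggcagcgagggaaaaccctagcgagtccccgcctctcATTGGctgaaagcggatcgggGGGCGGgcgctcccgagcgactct
Cyp51, chr5:4104698-4104947, minus strand: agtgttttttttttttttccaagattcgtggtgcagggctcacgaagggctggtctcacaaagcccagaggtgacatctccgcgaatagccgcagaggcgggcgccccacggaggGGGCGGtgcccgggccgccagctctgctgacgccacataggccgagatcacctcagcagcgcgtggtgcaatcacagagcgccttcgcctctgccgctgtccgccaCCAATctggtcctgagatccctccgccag
Lss, chr10:76531355-76531604, plus strand: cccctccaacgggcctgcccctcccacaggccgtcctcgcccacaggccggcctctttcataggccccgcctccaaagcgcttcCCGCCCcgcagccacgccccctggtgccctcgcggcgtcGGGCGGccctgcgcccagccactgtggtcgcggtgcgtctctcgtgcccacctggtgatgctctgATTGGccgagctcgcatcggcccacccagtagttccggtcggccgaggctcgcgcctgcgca
Insig1, chr5:28071162-28071411, plus strand: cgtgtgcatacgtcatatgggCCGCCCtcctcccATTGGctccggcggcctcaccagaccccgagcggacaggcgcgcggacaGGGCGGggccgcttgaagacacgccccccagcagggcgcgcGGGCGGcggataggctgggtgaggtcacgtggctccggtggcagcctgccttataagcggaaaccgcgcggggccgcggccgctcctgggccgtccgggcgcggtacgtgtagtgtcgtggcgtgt
Plin2, chr4:86670060-86670309, minus strand: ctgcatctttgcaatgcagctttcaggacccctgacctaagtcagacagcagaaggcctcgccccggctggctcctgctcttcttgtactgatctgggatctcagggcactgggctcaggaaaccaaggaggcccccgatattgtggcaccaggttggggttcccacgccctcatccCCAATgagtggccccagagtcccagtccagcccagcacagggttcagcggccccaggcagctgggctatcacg
Abca1, chr4:53159896-53160145, minus strand: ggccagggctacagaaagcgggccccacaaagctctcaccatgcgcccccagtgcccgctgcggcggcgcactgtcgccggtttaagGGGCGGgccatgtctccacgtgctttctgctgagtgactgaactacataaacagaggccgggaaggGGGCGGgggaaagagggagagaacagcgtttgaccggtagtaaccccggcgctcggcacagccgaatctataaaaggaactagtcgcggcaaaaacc

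Hmgcs1 held the regulatory element and 3 CCAAT boxes in these bases, while Cyp51 and Lss held 1 CCAAT box each. Insig1 held 1 CCAAT box and 3 GC boxes. Plin2 held 1 CCAAT box and no GC box before its start, and Abca1 held 2 GC boxes and no CCAAT box. A match of letters is a description of the window and no measure of binding.

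In blood monocytes after resection, Plin2, Insig1, Abca1, Soat1, Ppard and Acly rose and Fasn and Lss fell, 8 of 35 genes at a Benjamini-Hochberg adjusted p under 0.05 over all features, and the other 27 did not pass. The 6 higher genes were 6 of 35 where 10.8% of all features passed in that direction, and the 2 lower ones 2 of 35 where 10.3% passed. The resected libraries lay wholly above the intact ones for 9 genes and wholly below for 6, and the groups did not overlap for 38.4% of all features. Without intact blood library 3 the numbers were again 6 and 2, where 21.6% of all features passed, with Srebf1, Acaca and Mvd in place of Abca1, Soat1 and Ppard. Without resected blood library 3 they were 1 and 1, where 2477 of 21094 features passed.

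In splenic monocytes no gene of the 35 passed in either direction, where 1.02% of all features passed as higher and 1.03% as lower. At an unadjusted p under 0.05, which 20.8% of all features reached, there were 6 higher genes (Sc5d, Insig1, Nr1h3, Abcg1, Apoe and Plin2) and 1 lower (Srebf2). The resected libraries lay wholly above the intact ones for 9 genes and wholly below for none, and 35.1% of all features had groups that did not overlap. DESeq2 on the same counts called 3 genes higher, Insig1, Nr1h3 and Abcg1, where it called 14.6% of the features it tested. Intact blood library 3 enters the spread that all groups share, and without it 4 genes passed in spleen, Insig1, Nr1h3, Abcg1 and Fabp5, while the share of all features that passed went from 2.05% to 9.59%.

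**Figure D2:**
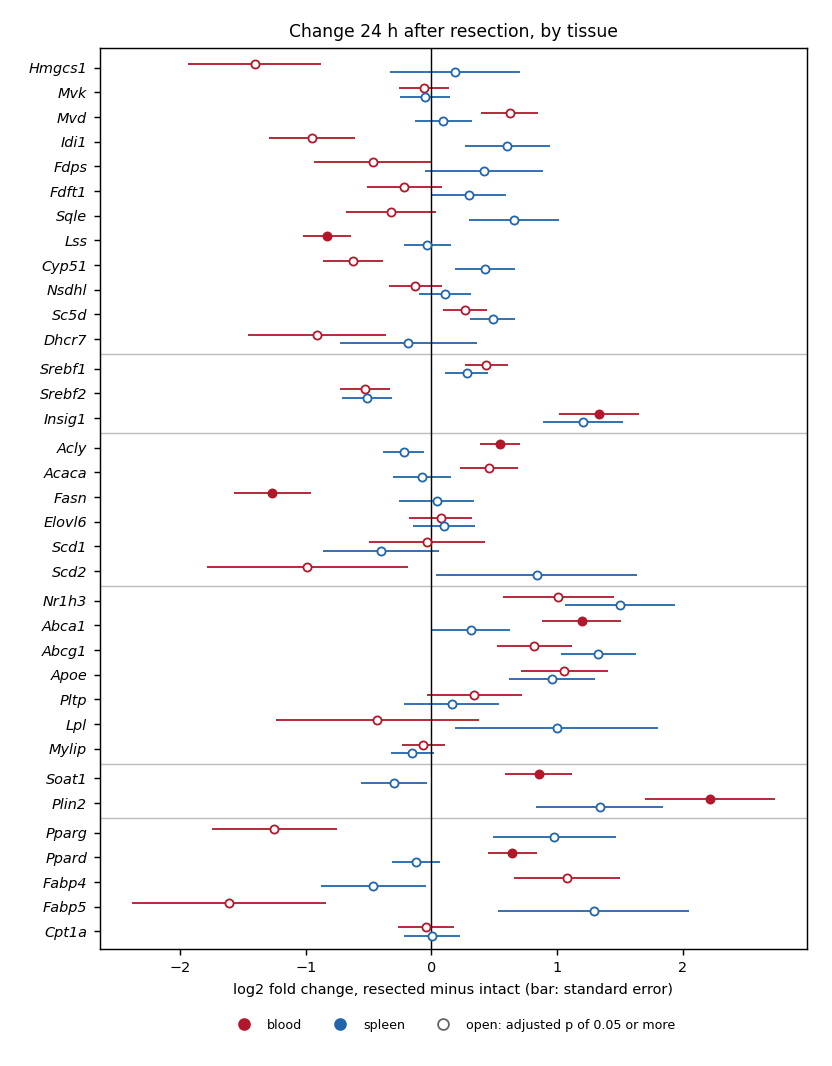
Points are log2 fold changes of resected minus intact monocytes for each of the 35 genes, red for blood and blue for spleen, with bars of 1 standard error and filled points where the adjusted p was under 0.05. Filled points occur in blood only, with Plin2 (2.21) farthest to the right and Fasn (-1.26) farthest to the left among them.

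The size of the resection effect did not pass a test of difference between the tissues for any of the 35 genes, where 0.219% of all features passed as higher in blood and 0.0646% as lower. At an unadjusted p under 0.05, which 17.3% of all features reached, Acly, Soat1, Ppard and Fabp4 had the more positive effect in blood, and Idi1, Lss, Cyp51, Fasn, Pparg and Fabp5 the more positive effect in spleen. DESeq2 called 5 of these, Acly in the former direction and Idi1, Lss, Fasn and Pparg in the latter, where it called 8.89% of the features it tested. Without resected splenic library 3 the difference for Pparg passed (-2.68), and without intact blood library 3 that for Acaca (0.93, with 0.53 in all libraries).

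Between tissues, blood monocytes of intact animals held more Pltp, Cyp51, Elovl6 and Acaca and less Nr1h3 and Abca1 than splenic ones. These were 4 higher genes, where 4.51% of all features passed, and 2 lower, where 4.66% passed. The groups did not overlap for 18 of the 35 genes, 12 higher and 6 lower, against 34.5% of all features. After resection Pltp, Acaca, Elovl6, Acly, Mvd and Insig1 were higher in blood and Pparg, Nr1h3, Fasn and Lss lower, 6 genes where 8.54% of all features passed and 4 where 10.6% passed. The groups did not overlap for 9 higher and 5 lower genes, against 42.4% of all features. The tissue comparisons use the same libraries as the resection comparisons, so the 4 sets of values are not independent. Haemoglobin genes took 13.2% to 34.2% of the counts in blood and 0.0814% to 3.47% in spleen. With them left out the median of all features moved from -0.02 to 0.10 in intact and from -0.14 to -0.02 in resected animals, and no lipid gene changed its direction.

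**Figure D3:**
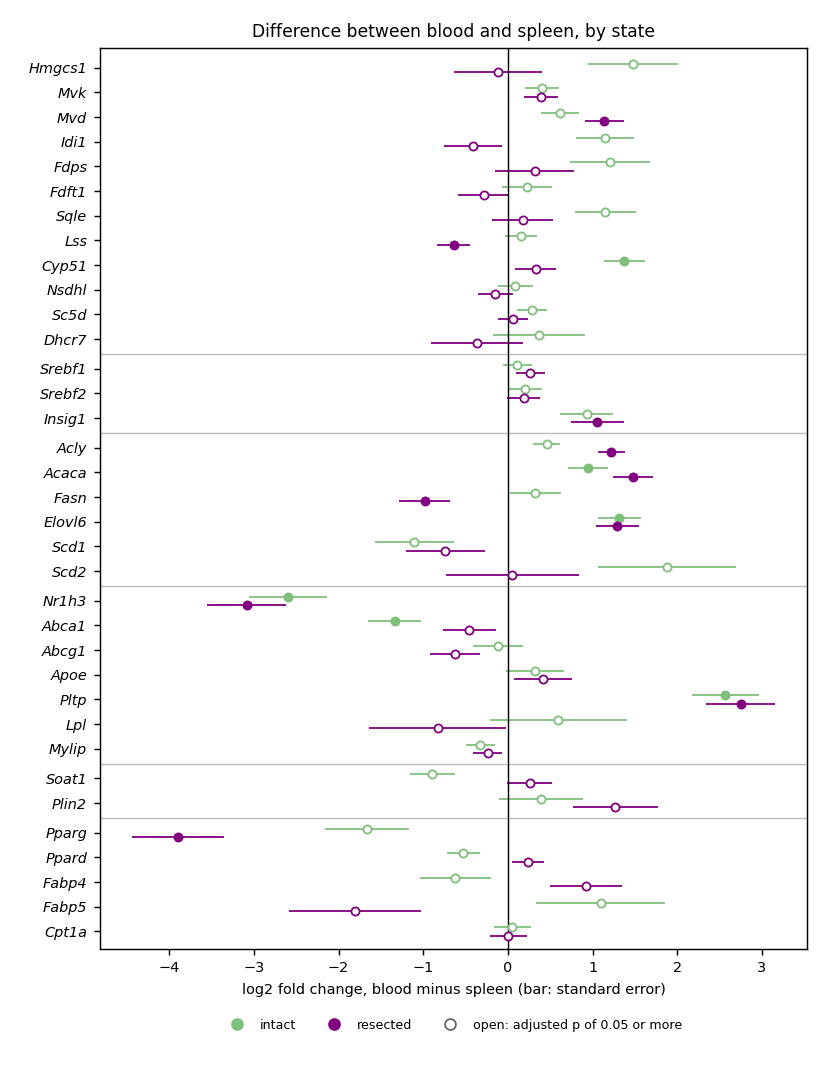
Points are log2 fold changes of blood minus spleen for each of the 35 genes, green for intact and purple for resected animals, with bars of 1 standard error and filled points where the adjusted p was under 0.05. Pltp lies far to the right and Nr1h3 far to the left in both states, and Pparg reaches -3.90 after resection.

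For the enzymes of sterol synthesis the comparison in blood rested largely on a single intact library. Of the 12 genes, 10 had a negative log2 fold change in blood, with a median of -0.39 beside -0.10 for all features, and 1 passed. Without intact blood library 3, 5 of the 12 were negative and the median was 0.07. In spleen 9 of 12 were positive, with a median of 0.24 beside 0.05 for all features, and none passed, while 1 reached an unadjusted p under 0.05.

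Hmgcs1, the synthase that makes the precursor of mevalonate, shows this. It stood at 32.6, 35.8 and 156 CPM in intact blood and at 20.7, 29.0 and 35.1 CPM in resected blood. The groups overlapped, and the high mean of intact blood (74.9 ± 70.4 CPM, SD, n = 3) came from library 3. The change on the log2 scale was -1.41 (standard error 0.53, adjusted p = 0.0857), and it was -0.28 without intact library 3 (adjusted p = 0.410). It passed without intact library 1 (-1.69) or 2 (-1.67) and in DESeq2 (-1.35, adjusted p = 0.0344). In spleen it stood at 25.1, 26.5 and 29.2 CPM before and 34.4, 23.6 and 33.9 CPM after resection. Those groups overlapped as well. The difference of Hmgcs1 between intact blood and intact spleen was 1.48 (adjusted p = 0.113). It ran from 0.45 to 1.85 as single libraries were left out and passed in none of these fits. DESeq2 called it (1.52, adjusted p = 0.0241).

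Lss, which closes squalene epoxide to lanosterol, was the sterol gene that fell in blood. It measured 12, 15.4 and 15.9 CPM in intact and 8.09, 7.27 and 8.98 CPM in resected libraries. No value overlapped, and intact library 3 was not apart from its group. The change on the log2 scale was -0.83 (standard error 0.19, adjusted p = 0.0143), with -0.76 without intact library 3 (adjusted p = 0.0210), and the call was lost without resected library 2 (-0.74). In spleen it measured 11.4, 11.4 and 16.0 CPM before and 13.0, 12.3 and 12.7 CPM after. After resection Lss was thus lower in blood than in spleen (-0.64, standard error 0.19, adjusted p = 0.0421), a call that was lost without any single library other than intact blood library 3, with values from -0.61 to -0.48. The difference between its tissue effects was -0.80 (standard error 0.27, adjusted p = 0.199).

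Cyp51, the demethylase of lanosterol, had intact blood libraries that lay close together. They measured 33.9, 34.4 and 35.1 CPM, against 20.3, 20.5 and 26.4 CPM after resection. In spleen the values were 10, 11.3 and 18.6 CPM before and 21.4, 14.6 and 17.6 CPM after. Intact blood stood wholly above every other group, and Cyp51 was higher there than in intact spleen under each of the 23 alternatives (1.37, standard error 0.24, adjusted p = 0.00974). Its change in blood did not pass (-0.62, standard error 0.24, adjusted p = 0.0902) except without intact splenic library 3 (-0.63), nor did the difference between tissue effects (-1.05, standard error 0.34, adjusted p = 0.188).

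Idi1, the isomerase of the isoprenoid units, measured 18.7, 19.5 and 41.1 CPM in intact and 10.1, 14.2 and 16.7 CPM in resected blood. The splenic values were 8.99, 10.9 and 16.0 CPM before and 15.4, 19.7 and 19.4 CPM after. The blood groups did not overlap and the splenic ones did. The change in blood was -0.95 (standard error 0.34, adjusted p = 0.0749), the difference between intact tissues 1.15 (standard error 0.34, adjusted p = 0.0659) and the difference between tissue effects -1.55 (standard error 0.48, adjusted p = 0.180). With intact blood library 3 left out these were -0.49 (adjusted p = 0.228), 0.78 (adjusted p = 0.107) and -1.09 (adjusted p = 0.186). The intact tissue difference passed without intact blood library 2 (1.36).

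**Figure D4:**
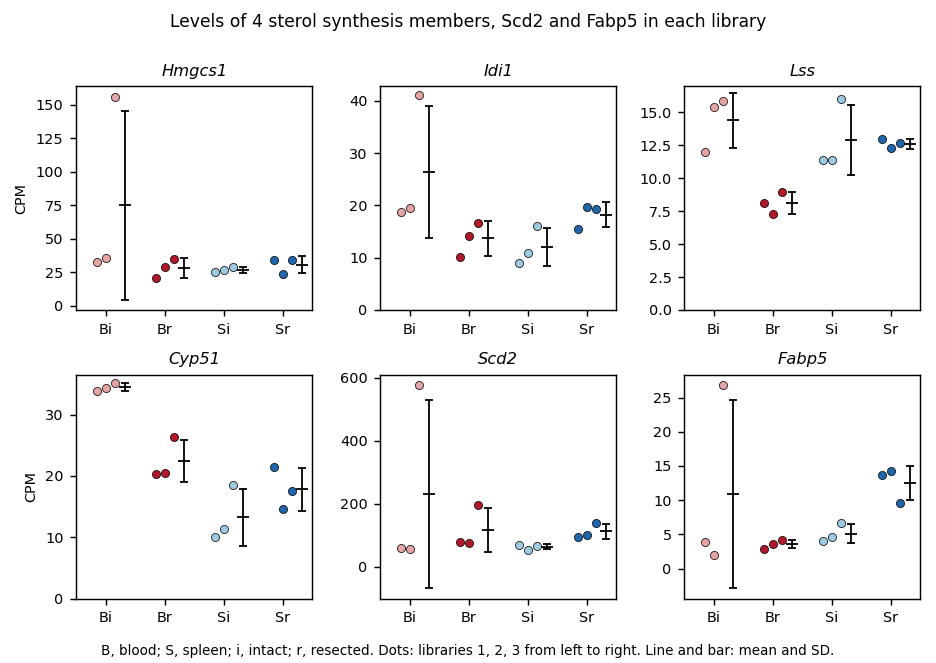
CPM of Hmgcs1, Idi1, Lss, Cyp51, Scd2 and Fabp5 in the 12 libraries, as dots in the order of library number, with the mean and SD of each group beside them. Intact blood library 3 lies far above its group for Hmgcs1 (156 CPM), Idi1 (41.1 CPM), Scd2 (577 CPM) and Fabp5 (26.8 CPM) but not for Lss or Cyp51.

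Mvd, which decarboxylates mevalonate pyrophosphate, had a positive change in blood, unlike most of its group. It measured 13.8, 16.4 and 22.7 CPM in intact and 20.6, 29.0 and 32.0 CPM in resected blood, and the groups overlapped through intact library 3. Its change was 0.62 (standard error 0.23, adjusted p = 0.0768), and it passed without intact library 3 (0.84, adjusted p = 0.0223) or resected library 1 (0.81). Splenic values were 10.9, 11.5 and 12.3 CPM before and 12.9, 10.2 and 13.9 CPM after, so that resected blood lay wholly above resected spleen (1.14, standard error 0.23, adjusted p = 0.00845). In intact animals the difference was 0.61 (standard error 0.23, adjusted p = 0.122).

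Among the other sterol enzymes, Fdps stood at 15.6, 16.0 and 51.9 CPM and Sqle at 13.9, 13.4 and 24.8 CPM in intact blood. Both showed library 3 above its group. The 2 enzymes make farnesyl pyrophosphate and squalene epoxide, and their differences from intact spleen were 1.20 (standard error 0.47, adjusted p = 0.144) and 1.15 (standard error 0.36, adjusted p = 0.0767). Without library 3 they were 0.49 for Fdps (adjusted p = 0.376) and 0.91 for Sqle (adjusted p = 0.141). Sc5d, a late desaturase of the pathway, measured 15, 13.1 and 16.4 CPM in intact and 25, 16.4 and 21.1 CPM in resected spleen. Those groups met at 16.4 CPM without overlap in the unrounded values, and the change was 0.49 (standard error 0.18, adjusted p = 0.156). Mvk, Fdft1, Nsdhl and Dhcr7 had no unadjusted p under 0.05 in any comparison of the main fit. Their group means ran from 6.59 to 9.01 CPM for Mvk, 17 to 20.8 CPM for Fdft1, 14.4 to 16.0 CPM for Nsdhl and 1.39 to 2.62 CPM for Dhcr7, which had the lowest count of the 35 genes in any library (23). Every blood library was above every splenic one for Mvk. DESeq2 called it higher in blood in intact (0.47, adjusted p = 0.0165) and in resected animals (0.50, adjusted p = 0.00731).

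Insig1, the brake on SREBP processing, rose with resection in blood. It measured 79.1, 71.7 and 53 CPM in intact and 163, 171 and 180 CPM in resected blood. The lowest resected library was well above the highest intact one, a change of 1.33 on the log2 scale (standard error 0.32, adjusted p = 0.0162), and the call held under each of the 23 alternatives. In spleen it measured 24.1, 28.3 and 54.7 CPM before and 108, 62.0 and 76.5 CPM after resection. These groups did not overlap either, with a change of 1.21 on the log2 scale (standard error 0.31, adjusted p = 0.0768), which passed without intact splenic library 3 (1.65) or intact blood library 3 (1.21, adjusted p = 0.0448). The effects in the 2 tissues differed by 0.13 (standard error 0.44). After resection blood was above spleen (1.06, standard error 0.31, adjusted p = 0.0419), a call lost without any of resected blood libraries 1, 2 and 3 or resected splenic libraries 2 and 3, with values from 0.99 to 1.19. In intact animals the difference was 0.93 (standard error 0.31, adjusted p = 0.0951) and passed without intact splenic library 3 (1.47).

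Of the SREBP genes themselves, Srebf2, which encodes the factor of the sterol pathway, measured 251, 263 and 283 CPM in intact and 160, 166 and 227 CPM in resected blood. The splenic values were 194, 221 and 277 CPM before and 197, 144 and 145 CPM after. It was lower after resection in both tissues without passing, by -0.53 in blood (standard error 0.20, adjusted p = 0.0835) and -0.51 in spleen (standard error 0.20, adjusted p = 0.179), and only the blood groups were apart. Srebf1, the factor of fatty acid synthesis and an LXR target, measured 60.7, 63.1 and 96.3 CPM in intact and 101, 91.9 and 105 CPM in resected blood. Intact library 3 lay among the resected ones. Its change of 0.44 (standard error 0.17, adjusted p = 0.0955) became 0.67 without that library and passed (adjusted p = 0.00330). In spleen all 3 resected values (82.2, 80.3 and 85.7 CPM) lay above the intact ones (62.9, 67.4 and 73.8 CPM).

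The enzymes of fatty acid synthesis parted in blood after resection. Acly, which supplies cytosolic acetyl-CoA, rose, and Fasn, which builds palmitate from it, fell. Acly measured 253, 244 and 337 CPM in intact and 370, 439 and 407 CPM in resected blood. No library overlapped, the change was 0.54 on the log2 scale (standard error 0.16, adjusted p = 0.0369), and it was 0.70 without intact library 3 (adjusted p = 0.00904). The call was lost without resected blood library 2 (0.50) or 3 (0.58), intact blood library 1 (0.53) or 2 (0.49), any intact splenic library or resected splenic library 1 (0.54 each). Splenic Acly measured 214, 208 and 186 CPM before and 169, 157 and 195 CPM after resection, and the groups overlapped. After resection blood stood above spleen (1.22, standard error 0.16, adjusted p = 0.00146), a call kept under each of the 23 alternatives. In intact animals the difference was 0.46 (standard error 0.16, adjusted p = 0.105). The tissue effects differed by 0.77 (standard error 0.23, adjusted p = 0.166), which passed without intact blood library 3 and resected splenic library 3 together (1.01, adjusted p = 0.0360).

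Fasn measured 103, 113 and 233 CPM in intact and 67.6, 67.5 and 51.5 CPM in resected blood. Every resected library lay below every intact one, with or without library 3. The change was -1.26 on the log2 scale (standard error 0.30, adjusted p = 0.0169), and it was -0.80 without intact library 3 (adjusted p = 0.0196). The call was lost without resected library 3 (-1.10). In spleen Fasn measured 117, 119 and 123 CPM before and 158, 102 and 109 CPM after. Resected blood was below resected spleen (-0.98, standard error 0.30, adjusted p = 0.0461), and this call was lost without any 1 of 10 libraries, all but intact blood libraries 1 and 3, with values from -1.0 to -0.67. The tissue effects differed by -1.31 (standard error 0.42, adjusted p = 0.188), and by -0.84 without intact blood library 3 (adjusted p = 0.162).

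Acaca, whose product feeds Fasn with malonyl-CoA, differed by tissue. It measured 44.9, 39.6 and 82.5 CPM in intact blood, 76.0, 73.5 and 80.1 CPM in resected blood, 27.4, 28.1 and 31.1 CPM in intact spleen and 28.7, 27.1 and 26.3 CPM in resected spleen. All 6 blood libraries lay above all 6 splenic ones. The difference was 0.95 in intact (standard error 0.23, adjusted p = 0.0338) and 1.48 in resected animals (standard error 0.24, adjusted p = 0.00314), the former lost without intact splenic library 1 (1.01), 2 (1.03) or 3 (1.10). Its change in blood was 0.46 (standard error 0.23) and passed without intact library 3 (0.85, adjusted p = 0.00184).

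Elovl6, which lengthens palmitate, was likewise higher in blood, at 10.9, 9.12 and 11.5 CPM in intact and 10.5, 10.9 and 11.8 CPM in resected libraries. In spleen it measured 3.81, 5.45 and 3.43 CPM before and 3.69, 4.13 and 5.78 CPM after. Every blood library was above every splenic one, by 1.32 in intact (standard error 0.25, adjusted p = 0.0133) and 1.29 in resected animals (standard error 0.25, adjusted p = 0.00768), and the former call was lost without intact splenic library 1 (1.34). The changes with resection were 0.07 in blood and 0.10 in spleen, each with a standard error of 0.25.

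The desaturases Scd1 and Scd2 were uneven within intact blood. Scd2 measured 59.1, 56.4 and 577 CPM in intact blood and Scd1 545, 675 and 199 CPM, so that library 3 was highest for one and lowest for the other. The difference of Scd2 between intact blood and spleen was 1.88 (standard error 0.82, adjusted p = 0.183) with that library and -0.02 without it. Scd1 was at 1110, 1090 and 860 CPM in intact spleen, wholly above intact blood, a difference of -1.11 (standard error 0.47, adjusted p = 0.172) that was -0.64 without that library (adjusted p = 0.362). No resection change of either had an unadjusted p under 0.05.

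Among the efflux transporters and their LXR partners, Abca1 rose in blood and most others had a positive change in both tissues that did not pass. Of the 7 genes, 1 passed in blood and 4 reached an unadjusted p under 0.05, all higher, where 35.9% of all features reached it in either direction. In spleen none passed and 3 reached it, all higher, where 20.8% of all features did. The median log2 fold change was 0.82 in blood and 0.96 in spleen, beside -0.10 and 0.05 for all features.

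Abca1, which loads cholesterol onto apolipoprotein A-I, rose in blood. It measured 90.8, 68.7 and 64.2 CPM in intact and 123, 149 and 240 CPM in resected libraries. These did not overlap, and the change was 1.19 on the log2 scale (standard error 0.31, adjusted p = 0.0244). The call was lost without intact library 2 (1.15) or 3 (1.09) and without resected library 2 (1.28) or 3 (0.89). The splenic values were 222, 198 and 144 CPM before and 326, 202 and 174 CPM after resection, and the groups overlapped. Intact blood lay below intact spleen (-1.34, standard error 0.32, adjusted p = 0.0294). That call was lost without any of intact blood libraries 1, 2 and 3, intact splenic libraries 1, 2 and 3, resected blood library 2 or resected splenic library 2, with values from -1.46 to -1.10. After resection the difference was -0.46 (standard error 0.31).

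Abcg1, which exports cholesterol to mature HDL, measured 114, 117 and 110 CPM in intact and 427, 235 and 194 CPM in resected spleen. The lowest resected library was well above the narrow intact range. The change was 1.33 on the log2 scale (standard error 0.30, adjusted p = 0.0534), and it passed without intact blood library 3 (1.33, adjusted p = 0.0333) and in DESeq2 (1.31, adjusted p = 0.000549). In blood it measured 92.4, 102 and 119 CPM before and 243, 175 and 134 CPM after, also with no overlap (0.82, standard error 0.30, adjusted p = 0.0765), and it passed without resected splenic library 1 (0.81).

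Nr1h3, which encodes LXR alpha, was lower in blood than in spleen in both states. It measured 1.51, 2.42 and 3.78 CPM in intact blood and 2.78, 5.88 and 6.90 CPM in resected blood. In spleen it measured 14.2, 16.5 and 16.1 CPM before and 64.3, 42.9 and 25 CPM after resection. Blood was wholly below spleen, by -2.60 in intact (standard error 0.46, adjusted p = 0.00978) and -3.09 in resected animals (standard error 0.46, adjusted p = 0.00254), under each of the 23 alternatives. The splenic groups did not overlap, with a change of 1.50 (standard error 0.44, adjusted p = 0.0979), which passed without intact blood library 3 (1.50, adjusted p = 0.0490) and in DESeq2 (1.49, adjusted p = 0.0110). The blood groups overlapped (1.01, standard error 0.44, adjusted p = 0.129). The 10 markers of red pulp macrophages summed to 271 to 827 CPM in intact and 2710 to 3540 CPM in resected blood, and to 1480 to 2190 CPM and 3100 to 6140 CPM in spleen. Of these, 8 were higher after resection in blood at an adjusted p under 0.05, where 10.8% of all features were. Yet Spic held 0.328 to 6.42 CPM and Vcam1 0.413 to 4.78 CPM in blood, against 31.3 to 126 and 377 to 1570 CPM in spleen. Hmox1 (565 to 801 CPM) and Adgre1 (793 to 1140 CPM) gave the largest parts of the sum in resected blood. That sum thus does not count red pulp macrophages, and their part was not tested.

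Apoe, the apolipoprotein that macrophages secrete, measured 887, 347 and 584 CPM in intact and 1570, 1350 and 864 CPM in resected blood. Intact library 1 lay above resected library 3. The splenic values were 495, 523 and 443 CPM before and 839, 1240 and 762 CPM after, with no overlap. The changes were close in size, 1.06 in blood (standard error 0.35, adjusted p = 0.0541) and 0.96 in spleen (standard error 0.34, adjusted p = 0.153), and the blood one passed without intact library 1 (1.50).

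Pltp, which transfers phospholipid between lipoproteins, was higher in blood than in spleen in both states. It measured 381, 265 and 232 CPM in intact and 514, 366 and 230 CPM in resected blood, against 41.5, 48.3 and 58.0 CPM and 40.2, 37.5 and 87.5 CPM in spleen. No blood library came near the splenic range. The difference was 2.57 in intact (standard error 0.40, adjusted p = 0.00589) and 2.75 in resected animals (standard error 0.40, adjusted p = 0.00235), and both calls held under each of the 23 alternatives. Lpl, the lipase that frees fatty acids from lipoproteins, scattered within spleen, with 8.48, 11.8 and 50.3 CPM before and 64.3, 69.8 and 6.59 CPM after resection, and no comparison of it had an unadjusted p under 0.05. The same held for Mylip, the ligase that degrades lipoprotein receptors, whose group means ran from 68.7 to 90.2 CPM.

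Plin2, which coats lipid droplets, rose more than any other of the 35 genes in blood. It measured 101, 98.1 and 127 CPM in intact and 360, 430 and 727 CPM in resected libraries. All resected libraries lay far above the intact range, a 4.64-fold increase (log2 fold change 2.21, standard error 0.52, adjusted p = 0.0152). The call was lost without resected library 3 (1.89, adjusted p = 0.0501). In spleen it measured 97.1, 90.4 and 62.3 CPM before and 118, 101 and 412 CPM after. The groups were apart by a small margin except for resected library 3, and the change of 1.34 (standard error 0.50, adjusted p = 0.169) was 0.40 without it (adjusted p = 0.595). In that library the sum of the neutrophil markers was the highest of the group (14000 CPM) and that of the red pulp macrophage markers the lowest (3100 CPM). Not every marker followed its sum. Ly6g was the lowest of the group there (26.4 against 27.9 and 28 CPM) and Camp in the middle (79.1 against 55.2 and 105 CPM). Hmox1 was the highest (1390 against 753 and 1100 CPM). The other markers of both lists went with their sums. The part of these cells was not tested. After resection blood and spleen overlapped through that library, with a difference of 1.26 (standard error 0.50, adjusted p = 0.107) that became 2.30 and passed without it.

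Soat1, which esterifies cholesterol for storage, measured 68.8, 74.0 and 35.2 CPM in intact and 86.7, 112 and 123 CPM in resected blood. The groups did not overlap, and the change was 0.85 on the log2 scale (standard error 0.27, adjusted p = 0.0465). This call was lost without any single library of the 12, with values from 0.58 without intact blood library 3 to 1.05 without intact blood library 2. The splenic values were 119, 126 and 85.3 CPM before and 85.0, 88.5 and 95.3 CPM after resection. Intact blood was below intact spleen without passing (-0.89, standard error 0.27, adjusted p = 0.0656), with -0.52 when intact blood library 3 was left out (adjusted p = 0.135), and the tissue effects differed by 1.15 (standard error 0.38, adjusted p = 0.188).

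**Figure D5:**
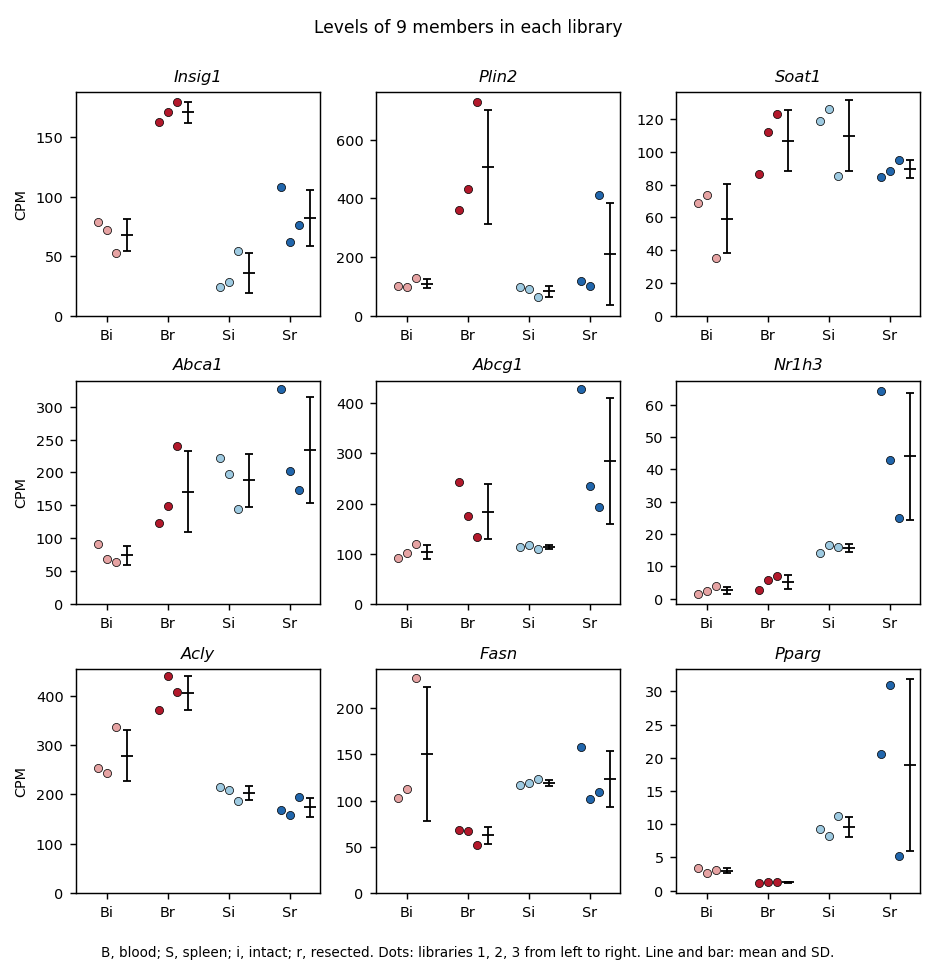
CPM of Insig1, Plin2, Soat1, Abca1, Abcg1, Nr1h3, Acly, Fasn and Pparg in the 12 libraries, as dots in the order of library number, with the mean and SD of each group beside them. Insig1 lies at 163 to 180 CPM in resected blood against 53 to 79.1 CPM in intact blood, Plin2 of resected splenic library 3 lies at 412 CPM, and Pparg of the resected group is spread in spleen and tight in blood.

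Pparg, the receptor that drives lipid uptake in macrophages, was sparse in blood and, after resection, lower there than in spleen. It measured 3.39, 2.60 and 3.06 CPM in intact and 1.19, 1.26 and 1.35 CPM in resected blood. The libraries were tight within each state and did not overlap, yet the change of -1.25 (standard error 0.50) had an adjusted p of 0.101. Without resected splenic library 3, whose value of 5.16 CPM was far from the 20.6 and 30.9 CPM of its group, the same change had a standard error of 0.23 and passed (adjusted p = 0.00679). Intact spleen measured 9.28, 8.29 and 11.2 CPM. Blood was below spleen by -3.90 after resection (standard error 0.55, adjusted p = 0.00192), under each of the 23 alternatives, and by -1.67 in intact animals (standard error 0.50, adjusted p = 0.0641), which passed without resected splenic library 3 (-1.57, adjusted p = 0.00512). The difference between the tissue effects was -2.23 (standard error 0.70, adjusted p = 0.181) and -2.68 without that library (adjusted p = 0.0256).

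Ppard, the more widely expressed receptor, rose in blood, from 17.1, 18.0 and 16.9 CPM to 26.2, 20.9 and 34.1 CPM. The groups did not overlap (0.64, standard error 0.19, adjusted p = 0.0396). The call was lost without any of intact blood libraries 1, 2 and 3, resected blood libraries 1 and 3, intact splenic libraries 1 and 2 or resected splenic libraries 1 and 2, with values from 0.47 to 0.69. In spleen it measured 27.1, 27.5 and 20.3 CPM before and 23.4, 20.4 and 25 CPM after. The difference between intact tissues was -0.53 (standard error 0.19, adjusted p = 0.118) and that between the tissue effects 0.77 (standard error 0.27, adjusted p = 0.214).

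The fatty acid binding proteins were low. Fabp4, which marks adipocytes and some macrophages, measured 0.881, 0.771 and 1.27 CPM in intact and 1.59, 2.68 and 1.91 CPM in resected blood (1.08, standard error 0.42, adjusted p = 0.0952), with no overlap and at most 97 counts in a library. Its tissue effects differed by 1.54 (standard error 0.59, adjusted p = 0.235). Fabp5 measured 3.88, 2.03 and 26.8 CPM in intact and 2.93, 3.60 and 4.17 CPM in resected blood, against 4.0, 4.61 and 6.70 CPM in intact and 13.7, 14.2 and 9.56 CPM in resected spleen. Every resected splenic library was above every intact one. Intact blood library 3 alone was higher than all of these. With it the difference between resected tissues was -1.81 (standard error 0.78, adjusted p = 0.131) and that between the tissue effects -2.90 (standard error 1.08, adjusted p = 0.228). Without it the former passed (-1.71, adjusted p = 0.00502), as did the splenic increase (1.29, adjusted p = 0.0387), and the latter was -1.03 (adjusted p = 0.303). Cpt1a, the gate of mitochondrial fatty acid oxidation, had group means from 189 to 196 CPM, and its log2 differences ran from -0.05 to 0.05 over the 5 comparisons.

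Other genes of the same pathways gave a wider view. Of 72 tested, 22 were higher and 4 lower in blood after resection, against the shares of 10.8% and 10.3% of all features. In spleen 3 were higher and none lower, against 1.02% and 1.03% of all features. The same shares stand beside the counts of the single lists below. Of 73 tested without intact blood library 3, 23 were higher and 4 lower in blood (21.6% of all features passed) and 9 higher in spleen (9.59%). Without resected splenic library 3 these were 26 and 5 in blood (20.1%) and 0 in spleen (0.128%). Without both libraries they were 24 and 6 in blood (25.4%) and 3 in spleen (4.49%).

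Beside Plin2, all 9 other genes of storage and lipolysis had a positive log2 fold change in blood, and 4 passed, where 10.8% of all features passed as higher. Hilpda, an inhibitor of droplet lipolysis, measured 9.03, 7.58 and 11.4 CPM in intact and 65.9, 130 and 155 CPM in resected blood (3.65, standard error 0.37, adjusted p = 0.000644), and 9.79, 13.1 and 17.2 CPM against 65.3, 40.6 and 67.0 CPM in spleen (2.11, standard error 0.35, adjusted p = 0.0253). It rose in both tissues without overlap. Abhd5, the activator of the same lipase, also rose in both, by 1.24 in blood (adjusted p = 0.0118) and 1.26 in spleen (adjusted p = 0.0490). G0s2, another inhibitor of that lipase, rose by 5.23 (adjusted p = 0.00324) and Soat2 by 4.31 (adjusted p = 0.00454) in blood.

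Around cholesterol export and lysosomal release, 8 of 15 other genes rose in blood and 1 fell, where 10.8% and 10.3% of all features did. They included Npc1 (1.18, adjusted p = 0.00351) and Lipa (0.94, adjusted p = 0.0371), which free cholesterol from lysosomes, Nceh1 (0.90, adjusted p = 0.00135), which hydrolyses stored esters, and Apoc2 (2.92, adjusted p = 0.00953), the cofactor of lipoprotein lipase. Npc1 measured 39.7, 35.8 and 34.4 CPM before and 65.9, 74.5 and 108 CPM after resection. Nceh1 was at 23.9, 24.0 and 23.3 CPM before and 45.9, 44.3 and 43.0 CPM after. Neither overlapped. In spleen none of these 15 passed, and 6 reached an unadjusted p under 0.05, all higher.

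Of 17 other genes of fatty acid synthesis and esterification, 6 rose in blood, where 10.8% of all features did. Among them were Me1, which supplies NADPH (4.87, adjusted p = 0.00168), and Dgat2, which completes triglycerides (4.90, adjusted p = 0.00722). Dgat2 measured 3.17, 3.93 and 0.765 CPM before and 27.8, 44.9 and 160 CPM after. Of 16 other sterol genes, 2 rose (Ebp and Pmvk) and 2 fell (Scap and Stard4). Of 15 other genes of oxidation, 2 rose and 1 fell, the coactivator Ppargc1b (-1.79, adjusted p = 0.00131).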

How the data were processed

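The authors deposited estimated counts per feature for each of the 12 libraries, not normalized between libraries. Per the labels and the submitters' processing notes, reads came from a strand-specific mRNA library for DNBSEQ and were handled with STAR on GRCm39; the methods name an Illumina HiSeq instrument. The counting tool and annotation are not given in the sources used here, so reads shared by close relatives such as Scd1 and Scd2 may have been divided between them. Of 67088 entries per library, 24256 were symbols, 40274 RefSeq accessions (25340 matched to a gene through the RefSeq table of GRCm38.p6) and 2558 unassigned transcripts, which were left out and made up 1.75% to 4.33% of a library. Estimated counts were summed per gene to 52553 features and rounded to whole numbers.

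Tests used edgeR 4.0.16 under R 4.3.3 (filterByExpr, TMM factors, robust quasi-likelihood fit of all 12 libraries and 4 groups, no covariate), with two-sided tests and Benjamini-Hochberg adjustment over 20135 features. A gene passed at an adjusted p under 0.05, with no limit on the fold change. The standard error was the size of the log2 fold change divided by the square root of F. Levels are CPM with TMM library sizes. No library repeated another of its group, since the chi-square of their counts was 19.7 to 560 times its degrees of freedom, and all were kept. The script was tested on simulated data. Alternatives were DESeq2 1.42.0, RLE factors, other low-count filters, a log2 fold change limit of 1, unadjusted p-values, only the 2 groups compared, a block for the replicate number, entries as deposited, a fit without haemoglobin genes, and each library left out.

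A log2 fold change is given for a gene that passed or had an unadjusted p under 0.05, and the others by their levels. The members and lists were chosen with earlier results of these data known. Some genes of the pathways are not reported here by name.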

Additional observations from a re-analysis of the deposited data

Results flagged for a closer look

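Acss2, which makes cytosolic acetyl-CoA from acetate, and Fads1, a desaturase of polyunsaturated fatty acids, were lower in every resected blood library and higher in every resected splenic library than in the intact ones. Acss2 measured 18.5, 16.4 and 17 CPM in intact and 12.6, 13.6 and 14.4 CPM in resected blood, where all libraries after resection were lower, and 8.40, 9.14 and 12.3 CPM in intact and 14.2, 26.2 and 25.9 CPM in resected spleen, where all were higher. The difference between the tissue effects was -1.51 on the log2 scale. Fads1 measured 14.6, 13.8 and 54.6 CPM against 12.5, 13.0 and 13.5 CPM in blood and 16.2, 16.2 and 15.9 CPM against 23.2, 46.4 and 28.1 CPM in spleen, with a difference of -2.11. Intact blood library 3 held the 54.6 CPM. The other intact blood libraries (14.6 and 13.8 CPM) lay only slightly above the resected ones. The difference for Fads1 thus rests in part on that library, and its value without it is not given here. Neither difference passed edgeR's test over all features.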

How the results depend on the processing

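Over 66 log2 fold changes with an unadjusted p under 0.05 and 23 alternative settings, 1508 values were obtained, of which 1287 kept direction and side of the threshold, 114 no longer passed, 105 newly passed and 2 changed sign. The setting with unadjusted p-values uses the rule by which the 66 were chosen, so each of them passed there by construction. Those that did not pass in the main fit are thus all among the 105 newly passing, and this setting is no test of them. Both sign changes were Scd2 between intact tissues, which was -0.0162 without intact blood library 3 and -0.0157 without intact blood library 3 and resected splenic library 3, a setting chosen after seeing the data, and ran up to 2.347 over the other libraries left out.

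Numbers of the 35 genes that passed are given as higher and lower, with the share of all features that passed in either direction at the same setting. DESeq2 called 11 and 5 in blood after resection (31.0%), 3 and 0 in spleen (14.6%), 12 and 4 between intact tissues (18.7%), and 1 and 4 for the difference of effects (8.89%). With unadjusted p-values these were 12 and 7 (35.9%), 6 and 1 (20.8%), 12 and 6 (25.3%), and 4 and 6 (17.3%). With the fold change limit 3 and 1 passed in blood (13.9%), and 2 were lower in resected blood than in resected spleen (13.2%), as with RLE factors (18.3%), without the low-count filter (8.48%), with entries as deposited (15.8%) and without haemoglobin genes (17.8%), 2 each. Without the low-count filter 1 was lower in intact blood than in intact spleen (3.71%). In fits to only the 2 groups compared, which estimate the spread from fewer samples, 2 and 0 passed in blood (1938 of 17553 features) and 2 were higher between intact tissues (4.90%). Without intact blood library 3 and resected splenic library 3, 4 passed as higher in spleen (4.49%), and 2 and 1 for the difference of effects (2.07%). The cause was not tested.

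Leaving out each library in turn gave 1 to 6 higher and 1 to 3 lower genes in blood after resection, 0 to 4 and 0 in spleen (4 without intact blood library 3, 1 without intact splenic library 3), 2 to 5 and 1 to 3 between intact tissues, 5 to 8 and 2 to 5 between resected tissues, and 0 to 1 and 0 to 1 for the difference of effects. The shares of all features also changed with the library left out and are not all given here. These counts therefore describe the settings and not the lipid genes.

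Deviations from group means of same-numbered libraries correlated from -0.10 to 0.31 (median 0.009), over 0.1 in 3 of 18 pairs. For differently numbered libraries of different groups they correlated from -0.31 to 0.165 (median 0.001), over 0.1 in 4 of 36 pairs. The ranges overlapped, so this check cannot decide whether the replicate numbers pair the libraries. With the replicate block 3 genes passed as higher and 3 as lower in blood (16.7%), 0 in spleen, 6 and 3 between intact tissues, 5 and 3 between resected tissues, and 0 for the difference of effects. Outside blood the shares of all features with this block are not given here, so those counts are not read as a result on the lipid genes.

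With 3 pooled libraries per group and a common dispersion of 0.312, changes near the threshold were called or not by single libraries. The lowest libraries of Dhcr7, Fabp4 and Pparg held 23, 30 and 37 counts.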
